A study of Mus musculus with 48 samples.

Results

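The distal tip of the mouse immunoglobulin heavy chain (Igh) variable region is the stretch of chromosome 12 farthest from the diversity (D) and joining (JH) segments, chr12:117100001-117238672 in mm9. A junction belonged to the tip when its position lay in this window, and the interval chr12:117158483-117158526, at the edge of Ighv1-81, was left out. Junctions in that interval were counted with the rest of the VH region, here and below. The tip covers 139 kb, or 5.72% of the 2426 kb VH region, and holds 8 of its 112 annotated VH genes, Ighv1-81 among them. Of 605816 VH-region junctions in 25 libraries, 23460 (3.87%) lay in the tip, 19175 on the plus strand and 4285 on the minus strand. Joined over gaps of up to 20 bp, they formed 90 of the 857 sites of the VH region, 41 plus and 49 minus, and 34 of the 90 had at least 10 junctions.

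Antigen receptor genes are assembled by the RAG recombinase, which cuts next to recombination signal sequences made of a heptamer, a spacer and a nonamer. A D segment first joins a JH segment, and a VH gene then joins the DJ product. In pro-B cells the distal VH genes are brought toward the recombination centre at the JH end by extrusion of chromatin loops by cohesin, which Wapl removes from chromatin.

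Junctions were mapped by LAM-HTGTS, a linear-amplification method that reads from a fixed bait, here the JH1 to JH4 segments, into whatever it has been joined to. The design text names orientation-dependent RAG scanning and long-range, cohesin-driven recombination as its questions. Libraries came from cultured bone marrow (BM) pro-B cells and from pro-B lines transformed with v-Abl, a viral kinase that keeps them cycling until STI-571 inhibits it. WT BM (3 libraries) and INV BM (4 libraries) were C57BL/6 cells labelled RAG1 deficient, INV BM carried an Igh inversion, and both were selected on B220 beads and grown with IL-7 at 10 ng/mL and SCF at 2 ng/mL. How RAG activity was restored in them is not given in the sources used here.

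All v-Abl lines carried OsTIR1, an Emu-Bcl2 transgene and RAG1 deficiency, were infected with RAG1/2 retrovirus and were held in 3 uM STI-571 for 4 days. The line labelled Primary carried nothing further and was untreated. The Wapl-degron line carried Wapl tagged for degradation through OsTIR1, and the single-Igh line carried the same degron and 1 Igh allele. Both were assayed untreated and with IAA/Dox, where 150 uM IAA and doxycycline were present with STI-571 for the last 3 days. The single-Igh INV line was assayed with IAA/Dox only, and its inversion is named in its title but not in its genotype label. Each v-Abl group had 3 libraries, and the sources used here give no ends of the inversion and no number of clones behind a line. Nothing in the labels says that replicates came from separate cultures or animals, so p-values measure the spread between these libraries, which may be technical.

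Libraries held between 61194 and 1016401 junctions. In WT BM the JH region took 5.06%, 64.8% and 87.4% of junctions, against 2.6% to 9.55% in INV BM, so shares of all junctions in WT BM move with this background and shares of D and VH junctions are given beside them. Some libraries shared joints, defined by the same position, strand and bait end and the same bases between bait and prey. For VH joints only those with at least 10 bases between bait and prey were compared, and tip joints had no such limit. Wapl-degron IAA/Dox replicates 1 and 2 shared 105 tip joints, 50.2% and 40.1% of those of each, replicates 1 and 3 shared 58 (27.8% and 18.1%), and replicates 2 and 3 shared 72 (27.5% and 22.4%). Single-Igh IAA/Dox replicates 1 and 3 shared 96 tip joints (65.3% and 66.7%), and single-Igh INV replicates 2 and 3 shared 6 (66.7% and 60%). INV BM replicates 2, 3 and 4 shared 13.7% to 14.7% of the VH joints of the smaller library of each pair, at most 3.24% of tip joints, and at most 0.0319% of VH joints with replicate 1. Libraries of different groups also shared joints. Single-Igh INV replicate 1 had 24 VH joints with at least 10 such bases. Of these, 5 (20.8%) were also in WT BM replicate 2 and 3 (12.5%) in single-Igh untreated replicate 2. Of its 5 tip joints, 1 was in WT BM replicate 2, and of the 10 of single-Igh INV replicate 3, 1 was in WT BM replicate 3. In Wapl-degron IAA/Dox replicate 2, 28.4% of lines repeated a read name. No read name was shared between any 2 libraries. Some results are also given below with libraries of 1 group that share joints counted as 1, but not those at single sites of the Wapl-degron line. No tip joint was found in both WT BM and INV BM.

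The sequences next to the most used joints show what kind of site they are. In each line below, capitals mark the 7 bases of the heptamer position and the 9 bases that follow a 23-base spacer, read 5′ to 3′ away from the joined end. The heptamer position was the closest match to CACAGTG that began within 10 bases beyond the most used joint position. The first 4 lie at plus-strand joints. Ighv1-78, Ighv1-82 and Ighv1-85 are VH genes of the tip, and the joint at 117126307 lies between Ighv1-78 and Ighv1-80 in no VH gene of the mm9 annotation.
Ighv1-78 (chr12:117106945-117107003, minus strand): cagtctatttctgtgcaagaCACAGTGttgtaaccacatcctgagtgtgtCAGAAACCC
unannotated plus-strand site 117126307 (chr12:117126268-117126326, minus strand): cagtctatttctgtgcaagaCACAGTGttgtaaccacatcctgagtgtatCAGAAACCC
Ighv1-82 (chr12:117190710-117190768, minus strand): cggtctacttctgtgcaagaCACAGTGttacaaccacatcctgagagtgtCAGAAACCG
Ighv1-85 (chr12:117238200-117238258, minus strand): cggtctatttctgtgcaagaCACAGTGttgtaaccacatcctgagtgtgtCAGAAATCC
The next 5 lie at minus-strand joints that no VH gene covers. Site 117193794 is the most used of them and lies between Ighv1-82 and Ighv1-83.
minus-strand site 117193794 (chr12:117193782-117193840, plus strand): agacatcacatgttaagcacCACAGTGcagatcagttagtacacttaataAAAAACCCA
minus-strand site 117153727 (chr12:117153713-117153771, plus strand): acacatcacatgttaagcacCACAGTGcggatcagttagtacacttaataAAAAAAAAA
minus-strand site 117103385 (chr12:117103376-117103434, plus strand): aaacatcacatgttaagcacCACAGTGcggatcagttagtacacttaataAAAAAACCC
minus-strand site 117235258 (chr12:117235246-117235304, plus strand): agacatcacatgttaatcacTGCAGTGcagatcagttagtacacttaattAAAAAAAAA
minus-strand site 117150322 (chr12:117150303-117150361, plus strand): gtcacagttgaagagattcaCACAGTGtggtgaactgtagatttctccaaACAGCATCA

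At the 8 plus-strand sites with the heptamer CACAGTG, it began 0 bases beyond the most used joint position, as in a coding joint at a VH gene. These were the 7 annotated VH genes of the window other than Ighv1-81, and site 117126307. Among plus-strand sites with at least 10 junctions, 8 of 14 had CACAGTG starting within 10 bases beyond their most used joint position, and among such minus-strand sites it was 6 of 20. Counted by single junctions at any tip site, 88.2% of plus-strand and 80.9% of minus-strand junctions had it within 10 bases of their own position. Of all 138672 positions of the window, 0.143% have the heptamer this close on the strand that plus-strand joints would use and 0.286% on the other strand. With up to 2 mismatches it was 15 of 20 minus-strand sites, beside 13.7% of all positions. With the heptamer starting directly at the joint, 0 bases beyond it, the exact match was found for 63.2% of plus-strand and 3.55% of minus-strand junctions. At the 5 minus-strand sites printed above, in that order, the heptamer position began 7, 5, 10, 7 and 0 bases beyond the most used joint position. These are all matches of letters and were not tested as signals.

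Site 117193794 and its relatives belong to a repeated sequence. Within the VH region, 22 stretches matched its 50 bases at 80% identity or more without gaps, all in the same direction, 8 of them in the tip. In the tip, 3 copies had an exact heptamer, and INV BM held 24, 238 and 2992 junctions at them. The tip copy at 117235258, with TGCAGTG at the heptamer position, held 70, and the 4 tip copies with AGCTGGA there held 0. Outside the tip, 4 of 14 copies had the exact heptamer, and 1 of these 4 held INV BM junctions, 2 in number, at 501 kb from the outer end of the VH region.

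**Figure D1:**
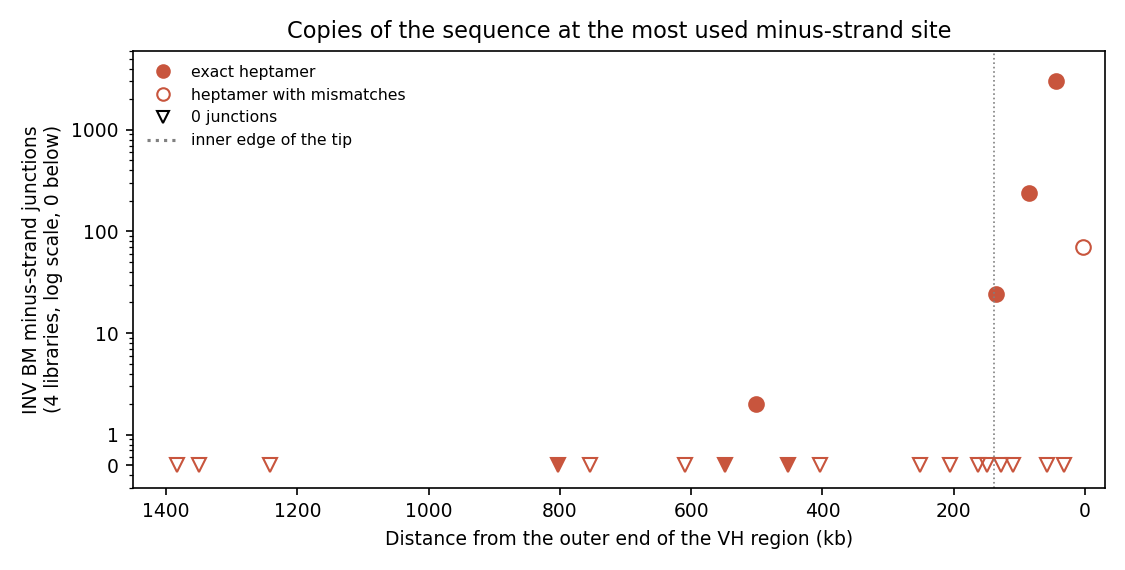
INV BM minus-strand junctions (4 libraries summed, log scale with 0 drawn below) at each of the 22 copies of the sequence of site 117193794, by distance in kb from the outer end of the VH region; filled symbols have the exact heptamer, triangles had 0 junctions, and the dotted line is the inner edge of the tip. The 4 copies with 24 to 2992 junctions lie in the tip, and the highest count outside it was 2.

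In INV BM most tip junctions lay in the other orientation than in WT BM, a majority that rested on 1 site. Tip junctions in WT BM numbered 8804, 3319 and 1900 on the plus strand and 46, 38 and 9 on the minus strand. In INV BM they numbered 1165, 418, 339 and 512 on the plus strand and 1961, 622, 603 and 940 on the minus strand. The minus strand thus took 0.52%, 1.13% and 0.471% of tip junctions in WT BM and 62.7%, 59.8%, 64% and 64.7% in INV BM, with a wide gap between the groups. The means were 0.708% ± 0.368 (SD, n = 3) and 62.8% ± 2.17 (SD, n = 4), a difference of 62.1 percentage points (two-sided exact permutation test, p = 0.0571, adjusted 0.145 over 16 such tests). With 4 libraries against 3 the smallest p is 0.0571, and with 3 against 3 it is 0.1, so none of these tests on group means could pass 0.05. With INV BM replicates 2 to 4 counted as 1 the difference was also 62.1 points (exact p = 0.2). The most used minus-strand site named above held 1408, 469, 459 and 656 of the minus-strand junctions of the INV BM libraries. Without that site the plus strand held the majority of tip junctions in every INV BM library. Minus-strand junctions at other tip sites still outnumbered those of the whole tip in any WT BM library.

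As a share of all junctions, the minus strand of the tip was higher in INV BM. It took 0.0115%, 0.00746% and 0.000885% in WT BM and 0.25%, 0.19%, 0.215% and 0.178% in INV BM, where every library was above every WT BM library. The means were 0.0066% ± 0.00534 (SD, n = 3) and 0.208% ± 0.0317 (SD, n = 4), 31.5-fold higher in INV BM (exact permutation p = 0.0571, adjusted 0.145) and 49.9-fold without WT BM replicate 1. The ratio was 78.4 over VH junctions and 15.7 over D and VH junctions. Within the sequencing run that held 2 WT BM and 3 INV BM libraries it was 46.6, and within the run that held 1 of each it was 21.8. The 93 WT BM minus-strand junctions came from 16 distinct joints, counted within each library and summed, and the 4126 of INV BM from 1148.

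The plus strand of the tip, which carries ordinary VH joints, was lower in INV BM. It took 2.19%, 0.652% and 0.187% of all junctions in WT BM and 0.148%, 0.128%, 0.121% and 0.0968% in INV BM. All INV BM libraries lay below all WT BM libraries, and the WT BM libraries differed widely among themselves. The means were 1.01% ± 1.05 (SD, n = 3) and 0.124% ± 0.0213 (SD, n = 4), 8.18-fold lower in INV BM (exact permutation p = 0.0571, adjusted 0.145). Without WT BM replicate 1 the difference in means shrank from -0.887 to -0.296 percentage points and the ratio from 8.18 to 3.39. Over D and VH junctions, where the JH background is set aside, WT BM took 1.97% ± 0.372 (SD, n = 3) and INV BM 0.132% ± 0.0256 (SD, n = 4), a ratio of 14.9. Over VH junctions the shares were 3.96% ± 0.862 (SD, n = 3) and 1.32% ± 0.139 (SD, n = 4), a ratio of 3. With both strands together the tip held 3.99% ± 0.867 of VH junctions in WT BM (SD, n = 3) and 3.55% ± 0.274 in INV BM (SD, n = 4), and these 2 ranges overlapped.

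**Figure D2:**
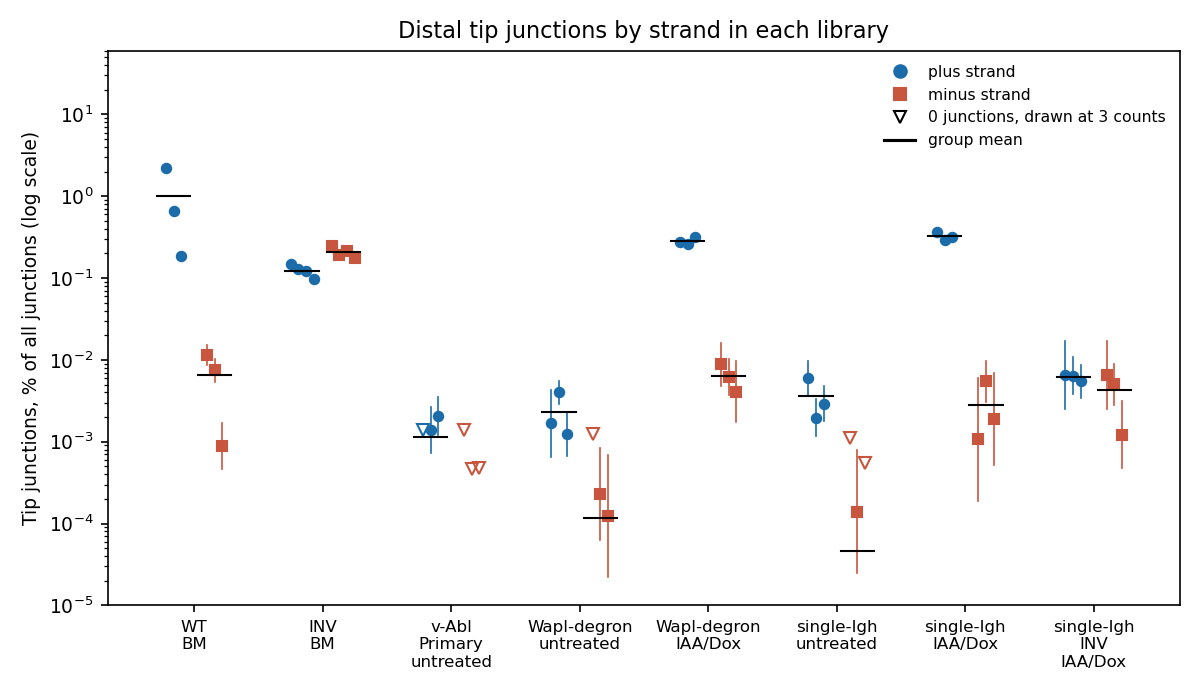
Plus-strand and minus-strand tip junctions as a percent of all junctions of each library (log scale), by group; vertical lines are 95% Wilson intervals, black bars are group means, and open triangles are libraries with 0 junctions drawn at the limit of 3 counts. Minus-strand shares of the INV BM libraries (0.178% to 0.25%) lie above those of WT BM (0.000885% to 0.0115%), and plus-strand shares of both IAA/Dox groups without the inversion lie above those of their untreated groups.

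The rest of the VH region also had more minus-strand junctions in INV BM than in WT BM. Outside the tip and without Ighv5-2, a gene near the D segments that takes many junctions, the minus strand took 22.1% ± 1.28 in INV BM (SD, n = 4) and 0.578% ± 0.0913 in WT BM (SD, n = 3). This rest included the interval left out of the tip, so joints of the VH gene at its edge were counted there. The effect of counting that interval with the rest was not tested. In INV BM the tip was above the rest by 40.7 percentage points in 4 of 4 libraries (exact sign-flip permutation test, p = 0.125, the smallest 4 libraries allow, adjusted 0.167). With Ighv5-2 in the rest the gap was 59.9 points. Without site 117193794 it was 9.01 points, so most of the gap lay at that 1 site.

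Single sites were compared with limma on voom-weighted counts, over all VH sites that reached 10 junctions in both groups together, at an adjusted p under 0.05. Of 31 tip sites tested between INV BM and WT BM, 8 were higher in INV BM, all on the minus strand, and 6 were lower, 5 on the plus strand and 1 on the minus strand. Over all 340 VH sites tested, 10.0% were higher and 37.9% lower. Of the 31 tip sites, 18 had 0 junctions in WT BM and so passed the minimum through INV BM alone. The median log2 fold change of all 340 sites was -1.38. The split of calls moved with the scaling. With VH junctions as library size 18 tip sites were higher and 5 lower, beside 80 and 127 of all 340 (median of all sites -0.80). With D and VH junctions 5 tip sites were higher and 9 lower, beside 17 and 169 of all 340 (median of all sites -3.15). Without WT BM replicate 3, 3 tip sites were higher and 8 lower, beside 13 and 138 of all 326 tested. With INV BM replicates 2 to 4 summed, 6 were higher and 3 lower, beside 22 and 88 of all 340.

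Site 117193794 carried most of the change on the minus strand. Its junctions numbered 33, 5 and 5 in WT BM and 1408, 469, 459 and 656 in INV BM, 69.8% to 76.1% of the minus-strand tip junctions of each INV BM library. As shares of all junctions these were 0.00822%, 0.000982% and 0.000492% in WT BM and 0.179%, 0.144%, 0.164% and 0.124% in INV BM, with no overlap. In limma's fit the site was higher by a log2 fold change of 6.53 (SE 1.11, adjusted p = 9.1e-08), and 15 alternative settings gave 4.93 to 7.65 with adjusted p of at most 0.0108. Joints there were spread over chr12:117193769-117193802, with 19.3% at 117193794 itself. The 43 WT BM junctions were 10 distinct joints, counted within each library and summed, and the 2992 of INV BM were 862.

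Sites 117150322 and 117153727 were the next most used minus-strand sites. Site 117150322 held 154, 36, 59 and 115 junctions in the INV BM libraries and 0 in WT BM. As a share of all junctions that is at least 33.8-fold higher, set against a floor of 3 counts in each WT BM library (limma adjusted p = 1.3e-06). Site 117153727, a copy of the repeat above, held 126, 29, 26 and 57 and again 0 in WT BM, at least 20.7-fold higher (limma adjusted p = 1.1e-05). All 4 INV BM libraries lay above all WT BM libraries at both sites. The heptamer at site 117150322 is exact but its surrounding letters differ from the repeat.

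The other minus-strand sites that were higher in INV BM held between 24 and 70 junctions. They were 117164015, 117193848, 117202022, 117207544 and 117235258, with limma adjusted p from 0.00619 to 0.0283. All 5 calls were lost without WT BM replicate 3, and those at 117164015 and 117207544 were lost in 5 and 4 of the 7 fits that left out 1 library. The highest limma adjusted p in such fits was 0.0626 to 0.137 over the 5 sites. Site 117207544 had 0 junctions in INV BM replicate 3 and in WT BM, so its groups overlapped. The repeat copy at 117235258 held 47, 7, 3 and 13 junctions in the INV BM libraries and a single 1 in those of WT BM. The ratio of the pooled shares of all junctions was 70.2 (exact 95% interval 12.2 to 2813). The minus-strand site lower in INV BM was 117238232, at the edge of Ighv1-85, with 3, 33 and 4 junctions in WT BM and 0 in every INV BM library, at least 3.46-fold lower (limma adjusted p = 0.0358), a call lost without any 1 of the 4 INV BM libraries. Minus-strand sites also lay at the edges of Ighv1-83 (117202022), Ighv1-82 (117190747) and Ighv1-80 (117150554), and the 51 INV BM junctions at 117190747 were all in replicate 1.

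**Figure D3:**
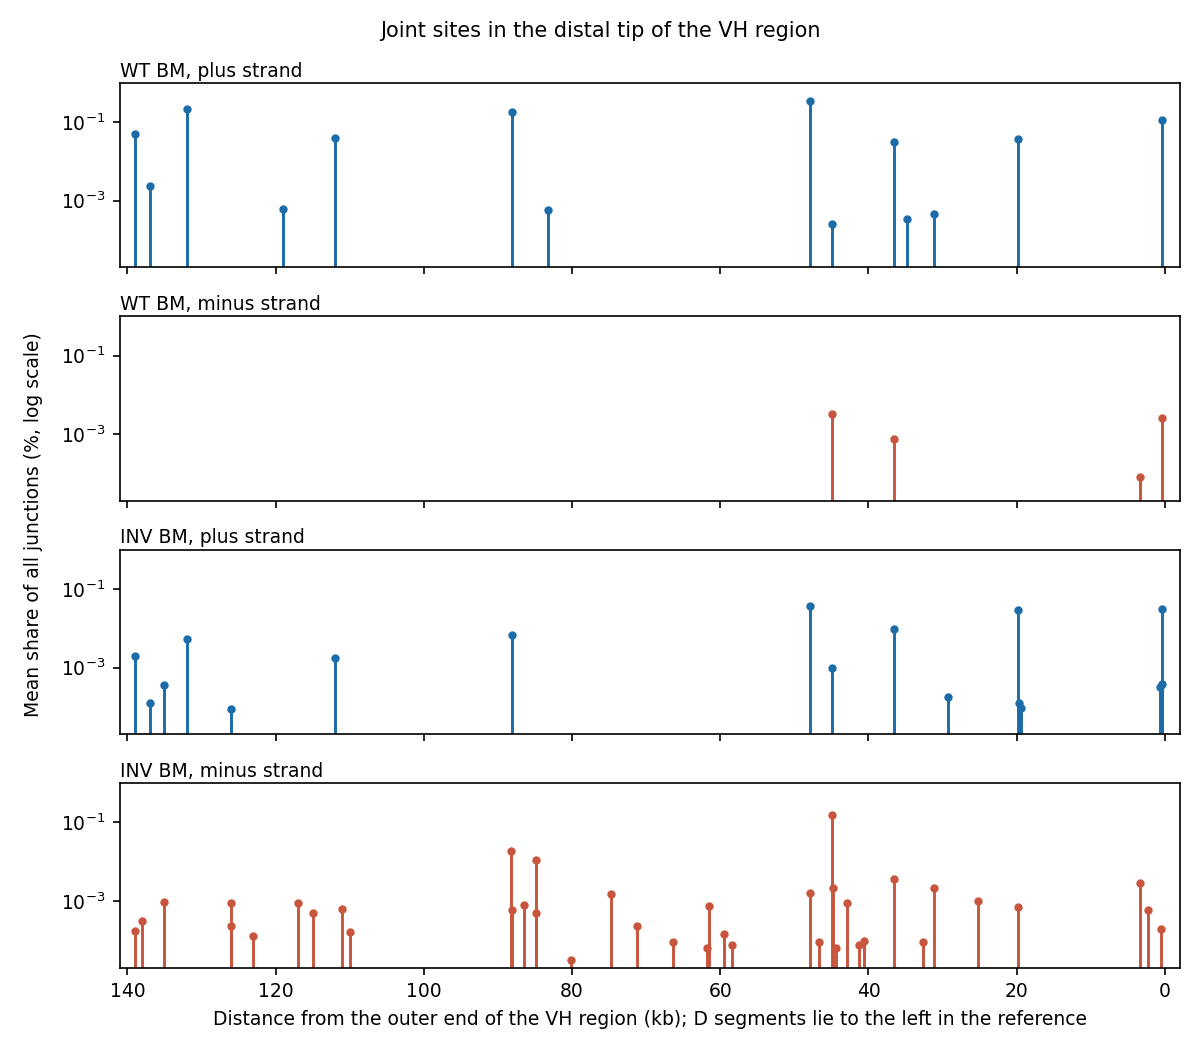
Mean share of all junctions (percent, log scale) at every tip site with a junction in WT BM (n = 3) or INV BM (n = 4), by strand and distance in kb from the outer end of the VH region. The tallest minus-strand line in INV BM, at 44.9 kb, is site 117193794 at 0.153%, and in WT BM the plus-strand sites dominate.

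On the plus strand the 4 inner sites and Ighv1-82 were lower in INV BM, and the outermost genes Ighv1-83, Ighv1-84 and Ighv1-85 were not called with all junctions as library size. These genes belong to the Ighv1 family, also named J558, which fills the distal part of the VH region. Ighv1-78 took 0.495%, 0.0915% and 0.0481% of junctions in WT BM and 0.00484%, 0.00521%, 0.005% and 0.00624% in INV BM, with no overlap (log2 fold change -4.45, SE 0.99, limma adjusted p = 4.4e-05). Ighv1-80 took 0.398%, 0.123% and 0.0327% in WT BM and 0.00713%, 0.0113%, 0.00678% and 0.0017% in INV BM (-4.22, SE 1.00, limma adjusted p = 0.000113). At both genes every INV BM library lay below every WT BM library. Ighv1-82, the most used in WT BM of the 7 tip genes kept here, took 0.743%, 0.22% and 0.056% there and 0.048%, 0.0453%, 0.036% and 0.0172% in INV BM (-2.44, SE 0.84, limma adjusted p = 0.00994). Its groups did not overlap, and the call was lost without INV BM replicate 3 (limma adjusted p = 0.0522) or replicate 4 (limma adjusted p = 0.0709), or with replicates 2 to 4 summed (limma adjusted p = 0.165). The 2 further plus-strand sites that were lower were Ighv1-77 (-4.15, limma adjusted p = 0.000639) and site 117126307 (-3.91, limma adjusted p = 0.00164).

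Ighv1-85, the outermost gene, took 0.267%, 0.0632% and 0.00836% in WT BM and 0.0299%, 0.0227%, 0.035% and 0.0348% in INV BM, and the groups overlapped. In limma's fit it was -0.54 on the log2 scale (SE 0.93, adjusted p = 0.615), turned to 0.64 without WT BM replicate 1, and was called lower with D and VH junctions as library size (-2.60, limma adjusted p = 5.1e-05). Of 15 alternative settings, 3 called Ighv1-85, this one among them. Ighv1-83 (-1.40, adjusted p = 0.261) and Ighv1-84 (0.03, adjusted p = 0.973) were not called by limma either, and their groups overlapped as shares of all junctions. With D and VH junctions as library size both were called lower (-2.94, limma adjusted p = 7.0e-05, and -1.39, limma adjusted p = 0.00695). As shares of D and VH junctions the groups did not overlap at any of the 3 genes. With that library size 169 of all 340 VH sites were called lower, and the median of all sites was -3.15. The fitted values of all 3 genes lay above that median, Ighv1-83 within its SE of 0.51. The median covers sites of both strands, and no gene was tested against it.

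Read from the inner to the outer end over D and VH junctions, the mean share in WT BM was 54.5-fold that in INV BM at Ighv1-77, 71.1-fold at Ighv1-78, 47.5-fold at site 117126307 and 50-fold at Ighv1-80. It was 16.5-fold at Ighv1-82, 7.87-fold at Ighv1-83, 3.03-fold at Ighv1-84 and 5.57-fold at Ighv1-85. The 4 inner sites thus had ratios of 47.5 to 71.1 and the 4 outer genes ratios of 3.03 to 16.5. Beyond the midpoint of the window lay 51.6%, 54% and 45.8% of plus-strand tip junctions in WT BM and 89%, 83.5%, 87% and 87.5% in INV BM. The means, 50.5% ± 4.22 (SD, n = 3) and 86.8% ± 2.34 (SD, n = 4), differed by 36.3 percentage points with no overlap (exact permutation p = 0.0571, adjusted 0.145).

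The genes behind the plus-strand tip junctions differed in the same way. In WT BM Ighv1-82 gave 32.5% ± 2.28 of them, Ighv1-78 20.8% ± 6.06, Ighv1-80 18.1% ± 0.651, Ighv1-85 8.79% ± 3.94 and Ighv1-84 4.93% ± 1.74 (SD, n = 3). In INV BM Ighv1-82 gave 28.8% ± 7.71, Ighv1-85 25.7% ± 8.34, Ighv1-84 23% ± 4.72, Ighv1-80 5.25% ± 2.91 and Ighv1-78 4.48% ± 1.37 (SD, n = 4). Ighv1-84 gave 18.7% to 28.5% in every INV BM library and at most 6.42% in WT BM, while the ranges of Ighv1-82 overlapped.

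**Figure D4:**
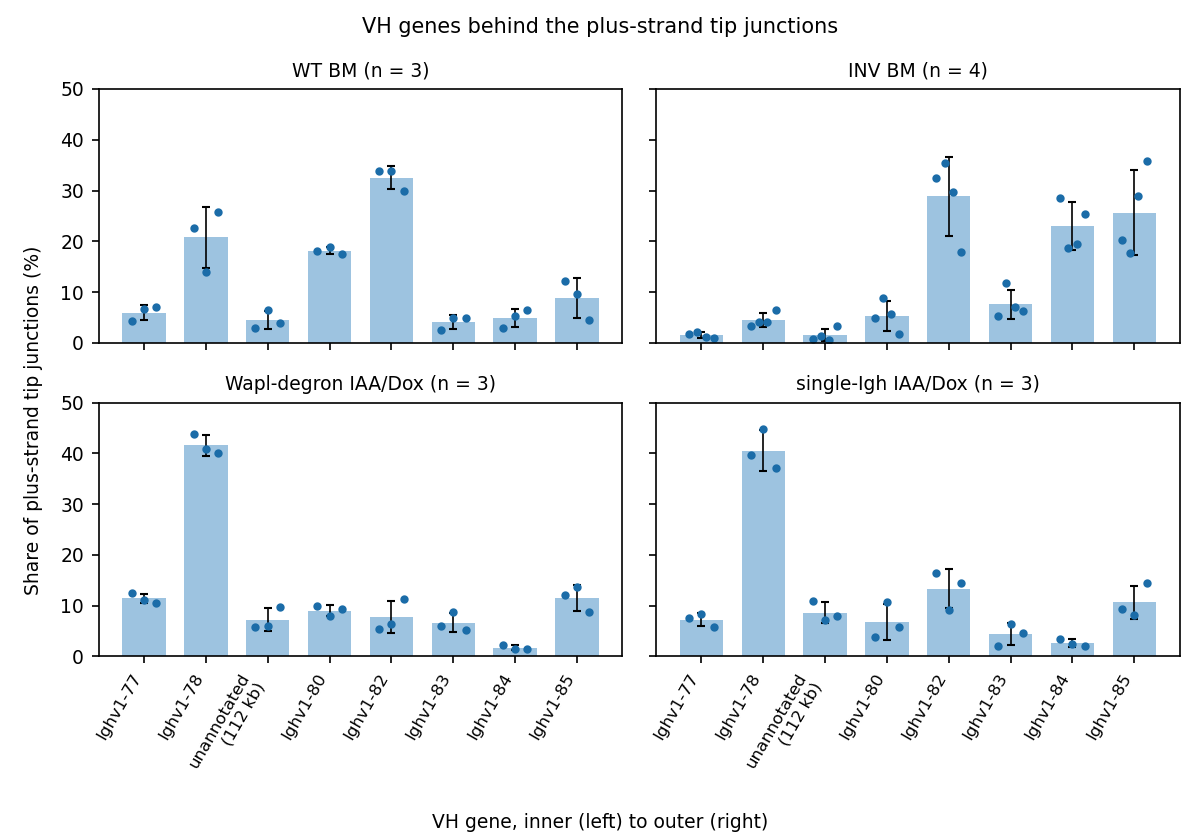
Share of the plus-strand tip junctions (percent) at each VH gene and at unannotated site 117126307, from the inner end (left) to the outer end (right), in WT BM, INV BM and the IAA/Dox groups of the Wapl-degron and single-Igh lines; bars are means, error bars 1 SD and points libraries. Ighv1-84 and Ighv1-85 stand at 23% and 25.7% in INV BM, and Ighv1-78 leads in both IAA/Dox groups at 41.6% and 40.6%.

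In the v-Abl lines without IAA/Dox the tip was joined rarely. The line labelled Primary had 0, 9 and 13 tip junctions, all on the plus strand, and 19 of these 22 were at Ighv1-78. The library with 0 allows a share of up to 0.00138% on either strand (3 counts of its total). The Wapl-degron line had 4, 37 and 11 tip junctions untreated, and the single-Igh line 16, 15 and 16. Ighv1-78 held 38 of the 49 plus-strand junctions of the untreated Wapl-degron line and 34 of the 46 of the untreated single-Igh line.

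With IAA/Dox the tip took a larger share of junctions in the Wapl-degron line on both strands, most of them plus-strand junctions. The plus-strand share was 0.00168%, 0.00401% and 0.00123% of junctions untreated and 0.275%, 0.263% and 0.317% with IAA/Dox. Every IAA/Dox library lay above every untreated one. The means were 0.00231% ± 0.0015 (SD, n = 3) and 0.285% ± 0.0279 (SD, n = 3), 124-fold higher (exact permutation p = 0.1, adjusted 0.145), and 28.2-fold higher over VH junctions. Without untreated replicate 2 these were 196-fold and 45.2-fold. Within the run that held 1 IAA/Dox and 3 untreated libraries the ratio was 114. With the IAA/Dox libraries, which share joints, counted as 1, the difference stayed at 0.283 percentage points, with an exact p of 0.5.

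Of 10 tip sites tested in the Wapl-degron line, 10 were higher with IAA/Dox and 0 lower. Over all 138 VH sites tested 89.1% were higher and 4.35% lower, so the tip's count was near the whole region's. Of the 10, 9 had under 10 junctions untreated and passed the minimum through the IAA/Dox libraries. Ighv1-78 had 3, 28 and 7 junctions untreated and 137, 243 and 155 with IAA/Dox (log2 fold change 6.11, SE 0.49, limma adjusted p = 9.3e-31). Ighv1-77, the innermost gene, had 0, 3 and 2 untreated and 39, 67 and 41 with IAA/Dox (6.73, SE 0.62, limma adjusted p = 6.3e-24). Both were higher in 3 of 3 IAA/Dox libraries, but these 3 libraries share joints. The limma p-values of this comparison, here and below, treat them as separate and may be too small.

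Ighv1-80 had 0 junctions in the untreated Wapl-degron libraries and 31, 47 and 36 with IAA/Dox, at least 39.4-fold higher (limma adjusted p = 3.5e-28). Ighv1-83 had 0 untreated and 19, 52 and 20 with IAA/Dox, at least 28.5-fold higher (limma adjusted p = 4.0e-25). Neither gene was seen in the untreated libraries, so only the lower bound is given. Ighv1-85 had 3 junctions untreated and 153 with IAA/Dox, a pooled ratio of 213 (exact 95% interval 71.4 to 1042), and Ighv1-82 had 2 and 99, a ratio of 206 (55.6 to 1728). The minus strand of the tip held 3 junctions untreated and 29 with IAA/Dox. As a share of all junctions this was 0.000117% ± 0.000115 and 0.00637% ± 0.00237 (SD, n = 3 each), 54.3-fold higher with no overlap (exact permutation p = 0.1, adjusted 0.145) and 104-fold without untreated replicate 2. Over VH junctions the minus-strand share was 13.4-fold higher, and 28.1-fold without that library. The minus-strand percent of tip junctions overlapped between the groups (exact permutation p = 0.4). Of these 29, 16 lay at 117202022, at the edge of Ighv1-83, and 4 at site 117193794.

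The single-Igh line gave a like picture on its 1 allele. Plus-strand tip shares were 0.00595%, 0.00196% and 0.00293% untreated and 0.365%, 0.293% and 0.319% with IAA/Dox, with no overlap. The means were 0.00361% ± 0.00208 (SD, n = 3) and 0.326% ± 0.0365 (SD, n = 3), 90.2-fold higher (exact permutation p = 0.1, adjusted 0.145) and 25.3-fold over VH junctions. Within the run that held 2 IAA/Dox libraries and 1 untreated library the ratio was 156. The minus-strand share was also higher, 60.1-fold in the mean (exact permutation p = 0.1, adjusted 0.145), from 1 junction untreated and 14 with IAA/Dox. Over VH junctions it was 15.6-fold higher. Without IAA/Dox replicate 2 the ratio over all junctions was 31.7, and without untreated replicate 2 no untreated minus-strand junction was left. The mean of the log2 plus-strand shares was higher with IAA/Dox by 7.14 in the first line and by 6.64 in this one. They differed by 0.491 (exact permutation of the line labels within each treatment, p = 0.52, smallest possible 0.005), and leaving out 1 library at a time gave 0.0534 to 0.986.

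All 11 tip sites tested in the single-Igh line were higher with IAA/Dox and 0 were lower, beside 90.3% and 3.45% of all 145 VH sites tested. Of these 11, 10 had under 10 junctions untreated. With the sequencing run as a block 2 of the 11 were called, beside 70 higher and 5 lower of all 145. Ighv1-78 had 10, 12 and 12 junctions untreated and 135, 265 and 126 with IAA/Dox (log2 fold change 5.86, SE 0.41, limma adjusted p = 1.7e-08). This call also held with the run as a block, a fit that compared the groups only within the 1 run that held both. Ighv1-82 had 1 junction untreated and 56, 54 and 49 with IAA/Dox, a pooled ratio of 607 (107 to 24109). Site 117126307 had 0 untreated and 37, 42 and 27, at least 41.2-fold higher (limma adjusted p = 1.2e-06). Ighv1-85 had 2 and 129 junctions in all, a ratio of 246 (66.8 to 2054), and Ighv1-77 had 1 and 95, a ratio of 362 (63.5 to 14464). The calls at these 4 sites were lost when the run was a block, with limma adjusted p of 0.0985 to 0.119. Libraries that share joints, when summed, left 11 sites called.

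Among plus-strand tip junctions of the IAA/Dox groups, Ighv1-78 gave 41.6% ± 2.02 with the Wapl-degron line and 40.6% ± 3.97 with the single-Igh line (SD, n = 3 each). In WT BM, a different cell kind, it gave 14% to 25.7%. Ighv1-84 gave 1.77% ± 0.41 and 2.65% ± 0.775, the lowest of the 8 sites in both lines.

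With the inversion on its 1 allele, the single-Igh INV line joined the tip rarely even with IAA/Dox. The plus strand held 4, 14 and 18 junctions, or 0.00654%, 0.00637% and 0.00547%, against 0.365%, 0.293% and 0.319% in the single-Igh line without the inversion. The means were 0.00613% ± 0.000574 (SD, n = 3) and 0.326% ± 0.0365 (SD, n = 3), 53.2-fold lower (exact permutation p = 0.1, adjusted 0.145) and 4.09-fold lower over VH junctions. Within the run that held 2 INV libraries and 1 of the other line the shares were 0.00646% and 0.365%. With libraries that share joints counted as 1, the difference was -0.311 percentage points in place of -0.32 (exact p = 0.333).

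The minus strand held 4, 11 and 4 junctions in the single-Igh INV line and 1, 11 and 2 in the single-Igh line, and as shares of all junctions they overlapped (exact permutation p = 0.6). Over VH junctions they were 0.237% to 2.78% in the INV line and 0.0217% to 0.12% in the other, 21.8-fold higher in the mean and with no overlap. Without single-Igh INV replicate 1, which had 4 of these junctions among 144 VH junctions, the ratio was 9.83, and without single-Igh IAA/Dox replicate 2 it was 42.5. Minus-strand junctions made up 50%, 44% and 18.2% of tip junctions in the INV line and 0.293%, 1.83% and 0.585% in the other, with no overlap (37.4% ± 16.9 against 0.903% ± 0.816, SD, n = 3 each, exact permutation p = 0.1, adjusted 0.145). In the rest of the VH region the minus strand took 37.5%, 44.3% and 41.1% in the INV line, so the tip was above the rest in 1 of 3 libraries and below it in the other 2. Site 117193794 had 0, 9 and 1 junctions in the INV line and 1, 4 and 0 in the other, and the groups overlapped. Its log2 fold change of -0.10 (limma adjusted p = 0.911) turned positive under 6 alternatives, with VH junctions as library size to 3.35 (adjusted p = 0.033).

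Of 12 tip sites tested between these lines, 11 were lower in the INV line and 0 higher, beside 91.2% lower and 3.38% higher over all 148 VH sites tested. Of the 12, 10 had under 10 junctions in the INV line. With VH junctions as library size it was 5 lower and 1 higher, beside 47 lower and 9 higher of all 148. Ighv1-78 had 1 junction in the INV line and 526 in the other, a pooled ratio of 800 (143 to 31644, limma adjusted p = 8.3e-10). Site 117126307 had 0 and 106, at least 12-fold lower (limma adjusted p = 2.9e-07). Ighv1-82 had 1 and 159, a ratio of 242 (42.8 to 9607), and Ighv1-77 had 1 and 95, a ratio of 144 (25.3 to 5764). Each of these 4 sites held at most 1 junction in the INV line.

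Ighv1-85 held 30 of the 36 plus-strand tip junctions of the single-Igh INV line. It had 3, 12 and 15 there, 75%, 85.7% and 83.3% of the plus-strand tip junctions of each library, and 32, 48 and 49 in the single-Igh line (log2 fold change -2.63, SE 0.55, limma adjusted p = 9.7e-05). With VH junctions as library size the value was 0.71 (adjusted p = 0.264). Beyond the midpoint of the window lay 83.2% ± 7.28 of plus-strand tip junctions in the INV line and 34.3% ± 6.13 in the other (SD, n = 3 each), 48.9 percentage points apart with no overlap (exact permutation p = 0.1, adjusted 0.145). The 36 plus-strand junctions of the INV line were 2, 4 and 7 distinct joints in its libraries, so these percentages rest on few events. Replicates 2 and 3 shared 6 tip joints over both strands, so these libraries are not fully separate.

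Bases between bait and prey can hold the letters of a D segment, and the order of joining was not tested. Each distinct joint was counted once per library. The median number of such bases was then 18 at plus-strand tip joints of WT BM (2809 joints) and INV BM (703). It was also 18 at minus-strand tip joints of INV BM (1148). At joints in the D region it was 4 in both groups. The bases matched a D segment over at least 8 bases in 65.5%, 72.1% and 71.3% of these tip sets, in 73.1% of joints at site 117193794 in INV BM, and in 6.11% and 7.27% of D-region joints of WT BM and INV BM. Minus-strand tip joints thus held D letters about as often as plus-strand ones.

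Ighd1-1, one of the D segments far from JH, was the most matched in these bone marrow tip sets. It was found in 31.6% of plus-strand joints of WT BM, 26.6% of those of INV BM, and 36.9% of INV BM joints at site 117193794, beside 30.7% in WT BM plus-strand joints, 21% in INV BM plus-strand joints and 29.4% in INV BM minus-strand joints of the rest of the VH region. The bait segment was most often Ighj2, with 44.3%, 42.1% and 43.4% of the same 3 tip sets. In the IAA/Dox groups of the Wapl-degron and single-Igh lines the median number of bases between was 12 and 11. Ighj1 took a mean of 52.8% ± 27.2 (SD, n = 3) of plus-strand tip joints in the single-Igh IAA/Dox libraries, which ranged from 21.4% to 69.2%. Replicates 1 and 3 of these share many tip joints. Pooled over the libraries Ighj1 took 43.8%, beside 43.2% of plus-strand joints in the rest of the VH region.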

How the data were processed

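The deposited lists give a junction on each line, with its chromosome, position, strand, bait and prey ends, sequence between them and read name, per the file headers. The authors' alignment used Bowtie2 and mm9, per the submitters' processing notes. The lists hold no normalized values: counts of junctions were made here from lines of the authors' deposited full lists, so any filter on duplicates by the authors sets how often 1 joint is listed. The 25 JH-bait libraries of the 48 samples were used. WT BM replicate 4 (an off-target list), pooled lists and Igk-bait lists were not used here. The 6 splenic samples were also not analysed here. Groups came from titles. The count of other columns of per-sample values was 0.

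The members, lists and comparisons were chosen with earlier results of these data known. Shares were compared over libraries by two-sided exact permutation tests (Python 3.11.15, scipy 1.17.1), with Benjamini-Hochberg adjustment over 16 tests. The tests of the outer percentage and of the tip against the rest of the region were added after seeing the data. Sites were tested with limma 3.58.1 in R 4.3.3 (voom with its prior count of 0.5, lmFit, eBayes), with all junctions of a library as its size, sites with at least 10 junctions, and adjustment over all VH sites tested; this was also run on simulated data. A fitted fold change of a site at 0 in a group depends on the prior count and is no bound. Named in each comparison were the 5 tip sites most used in either group by mean share, the 3 that changed most on the log2 scale of those called without overlap between groups, and site 117193794. Other sites were named after their values were seen. Intervals are 95% Wilson or exact intervals, and they and the floor of 3 counts cover counting error only, since 1 joint can be read many times.

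Heptamers, copies (80% identity over 50 bases) and coordinates were read from mm9. Genes are those of its annotation. Bases between bait and prey were searched for 8 or more bases of 21 D segments. Lists held gaps of up to 30 bases at the tip. Replicate numbers were not shown to pair the libraries. Same-numbered libraries' deviations correlated at -0.20 to 0.25, with no comparison over 0.1 throughout, which cannot exclude pairing. In bone marrow, replicate 1 of both groups lay in the same sequencing run and the other replicates in another.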

Additional observations from a re-analysis of the deposited data

How the results depend on the processing

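Counts of tip sites called moved with the size used for scaling and with the filter. With VH junctions as library size, 23 were called between INV BM and WT BM in place of 14, and 6 between the single-Igh INV and single-Igh lines in place of 11. Of all VH sites tested, 80 were then higher and 127 lower of 340, and 9 higher and 47 lower of 148. With INV BM replicates 2 to 4, which share joints, summed, 9 were called between INV BM and WT BM, where fewer libraries entered. In that fit 22 of all 340 VH sites were higher and 88 lower. With sites of at least 100 junctions, 8 were called between INV BM and WT BM, 5 for the Wapl-degron line, 4 for the single-Igh line and 4 between the single-Igh INV and single-Igh lines, where fewer sites were tested. In the same order, 10 were higher and 120 lower of all 138 VH sites, 50 and 6 of 62, 55 and 5 of 65, and 1 and 52 of 53. With sites of at least 1 junction, 29 (Wapl-degron line) and 32 (single-Igh line) were called. Beside them, 296 were higher and 6 lower of all 333 VH sites, and 275 and 5 of all 308. With the sequencing run as a block, 2 of 11 were called in the single-Igh line, beside 70 higher and 5 lower of all 145 VH sites. Only 1 sequencing run held both groups of that line, 2 libraries with IAA/Dox and 1 untreated, so that fit compared the groups within this run alone. The cause of the lower count was not tested. Leaving out 1 library at a time gave 11 to 13, 8 to 10, 8 to 11 and 8 to 11 called sites in the 4 comparisons. The minus-strand percent of tip junctions in the single-Igh line, -1.32 percentage points with IAA/Dox, became 1.83 in the outer part of the window, and without 1 library at a time it ranged from -2.43 to 0.903, the latter without untreated replicate 2; it rests on 1 untreated and 14 treated minus-strand junctions. The other 261 of the share and count values recomputed are not listed here. Shares among them kept their direction and their side of the threshold, but the size of their change was not judged. The plus-strand difference between INV BM and WT BM, for one, went from -0.887 to -0.296 percentage points without WT BM replicate 1. Counts of sites among them moved less than those above. Tests on group means and of the tip against the rest could not pass the threshold with so few libraries. Their side of it was thus fixed beforehand, and only their direction could have changed.

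Log2 fold changes that turned sign included those of Ighv1-84 between INV BM and WT BM (0.03, and -1.39 with D and VH junctions as library size), Ighv1-85 between INV BM and WT BM (0.64 without WT BM replicate 1, and -2.03 to 0.64 over single libraries left out), Ighv1-85 between the single-Igh INV and single-Igh lines (0.71 with VH junctions as library size), and site 117193794 there. The last became 3.35 with VH junctions as library size, 0.40 without single-Igh IAA/Dox replicate 2, 1.07 without single-Igh INV replicate 3 (-0.63 to 1.07 over single libraries left out), 0.66 with the run as a block and 0.25 with libraries that share joints summed. With the replicate number as a block it was 0.48. Under that block the plus-strand tip share of INV BM was lower by 0.878 percentage points (-0.878, exact sign-flip p = 0.25), and 12, 10, 11 and 11 tip sites were called. In the same order, 31 were higher and 125 lower of all 315 VH sites, 122 and 6 of 138, 131 and 5 of 145, and 5 and 138 of 148. Replicate numbers are not shown to pair libraries here. The distinct-joint and shared-joint settings were chosen after seeing the data. Libraries of 1 group were counted as 1 where over 10% of the smaller library's VH joints were shared, a threshold set after the sharing was counted. Only VH joints with at least 10 bases between bait and prey entered it. Pairs under the threshold shared up to 9.89%. The untreated v-Abl groups and the single-Igh INV line held only 22 to 55 tip junctions per group, which limits the precision of their shares and folds.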
